A study of Caenorhabditis elegans with 2 samples.

Results

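The genes described here build and form the microRNA silencing complex of Caenorhabditis elegans: the Argonautes alg-1 and alg-2, the GW182 proteins ain-1 and ain-2, the cofactor nhl-2, and the processing genes dcr-1, drsh-1 and pash-1. These 8 of 19973 nuclear protein-coding genes were chosen by their known role in the pathway, with earlier results of these data known. Each was examined from 5000 bp upstream of its annotated start to its end. The data are maps of where BLMP-1, the worm relative of the zinc finger repressor PRDM1, was bound, made by ChIP-seq from whole hermaphrodite L2 larvae. All worms were of strain OP109, genotype unc-119(ed3) III; wgIs109, whose wgIs109 transgene supplies BLMP-1 fused at its C-terminus to GFP and FLAG. The labels' antibody field names blmp-1. There was 1 group, with 2 biological replicates numbered 2 and 3, and no other genotype, stage or tissue. No source used here gives the sequence that drives the transgene, or says whether the worms still make untagged BLMP-1. In whole animals, strong binding in few cells and weak binding in many cannot be told apart.

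MicroRNAs are cut from long nuclear transcripts by the nuclease Drosha (drsh-1) and its RNA-binding partner Pasha (pash-1), and Dicer (dcr-1) then trims the hairpin to a short duplex. An Argonaute loaded with 1 strand of that duplex pairs with target mRNAs, and its GW182 partner recruits the enzymes that shorten the poly(A) tail and silence the message. In C. elegans this machinery carries out the work of lin-4 and the let-7 family, which time larval cell fates, and the TRIM-NHL protein NHL-2 enhances repression by several of them.

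The sequences at summits of nhl-2, ain-1 and alg-2 are shown first, because they are the DNA on which peaks in the promoter windows of these genes were centred. Each runs from 50 bp left to 50 bp right of the summit on the ce11 plus strand, read from the RefSeq copy of that assembly. Capitals mark a match to a word searched below, GTGAAA at nhl-2 and AGACGCAG at ain-1, both on the minus strand. The alg-1 summit is left out because it lies in an annotated 5′ UTR, and the last sequence is a weaker, sub-threshold summit of alg-2, added after its values were seen, as the counterpart to its paralogue.

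nhl-2, chrIII:4899886-4899986: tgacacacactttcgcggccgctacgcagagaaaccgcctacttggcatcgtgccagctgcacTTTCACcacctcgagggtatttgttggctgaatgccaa

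ain-1, stronger summit, chrX:16612440-16612540: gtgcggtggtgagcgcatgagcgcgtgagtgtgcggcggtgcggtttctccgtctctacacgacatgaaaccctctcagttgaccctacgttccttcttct

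ain-1, weaker summit, chrX:16612646-16612746: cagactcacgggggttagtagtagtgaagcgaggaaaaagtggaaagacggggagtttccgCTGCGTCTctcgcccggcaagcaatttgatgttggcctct

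alg-2, chrII:873027-873127: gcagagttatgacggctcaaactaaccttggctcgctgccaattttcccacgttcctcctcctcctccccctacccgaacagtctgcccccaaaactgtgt

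The thresholded list, which per the file descriptions keeps peaks that pass a reproducibility step, held 3031 nuclear summits. The relaxed lists, which hold peaks together with background, had 29970 nuclear summits for the pooled replicates, 19523 for replicate 2 and 25112 for replicate 3. The signal of a peak is the authors' own value from their peak caller, and its scale is not stated. It is compared within a list only, and across lists by rank, where rank 1 is the strongest nuclear peak. The lists give no read counts, so depth is unknown. Every thresholded peak had a higher pooled signal (27.08 or more) than every other pooled nuclear peak (27.06 or less). With 1 group there is no contrast to test, and the counts below are descriptions.

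BLMP-1 summits passed the threshold at 5 of the 8 genes (alg-1, ain-1, ain-2, nhl-2 and drsh-1), and at 3 of them, nhl-2, ain-1 and alg-1, a summit lay in the gene's promoter window. Among all nuclear protein-coding genes, 19.2% had a thresholded summit from 5000 bp upstream to the gene end, and 8.85% had one in a promoter window, here the stretch between 1000 bp before and 200 bp after an annotated transcript start. Genes with more annotated starts have more such stretches, and the 8.85% takes no account of this. At alg-1, with 4 starts, the summit counted only through the most downstream one. The 5 genes held 7 thresholded summits in all, and none was found for alg-2, dcr-1 or pash-1. The windows of the 8 genes were longer than most, with a median of 11.7 kb against 7.03 kb over all genes. Per kb of window they held 0.0778 thresholded summits against 0.0314 over all gene windows, which can overlap, so that a summit can count for several genes.

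Signals of the 7 summits ran from 33.4 to 338, with a median of 38.4 against 44.3 over all thresholded nuclear summits. The group was therefore uneven. The summits at nhl-2 and drsh-1 were near the top of the whole list, the stronger of ain-1 was within its upper 14.8%, and the remaining 4 ranked between 1871 and 2264 of 3031. For 4 of the 7 summits the nearest protein-coding transcript start was that of the microRNA pathway gene itself, at alg-1, at ain-1 and inside ain-2. The summit at nhl-2, the upstream summit of ain-2 and the summit at drsh-1 were nearer to the start of another gene. No share over all gene windows is given for this count, so it describes these summits only.

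**Figure D1:**
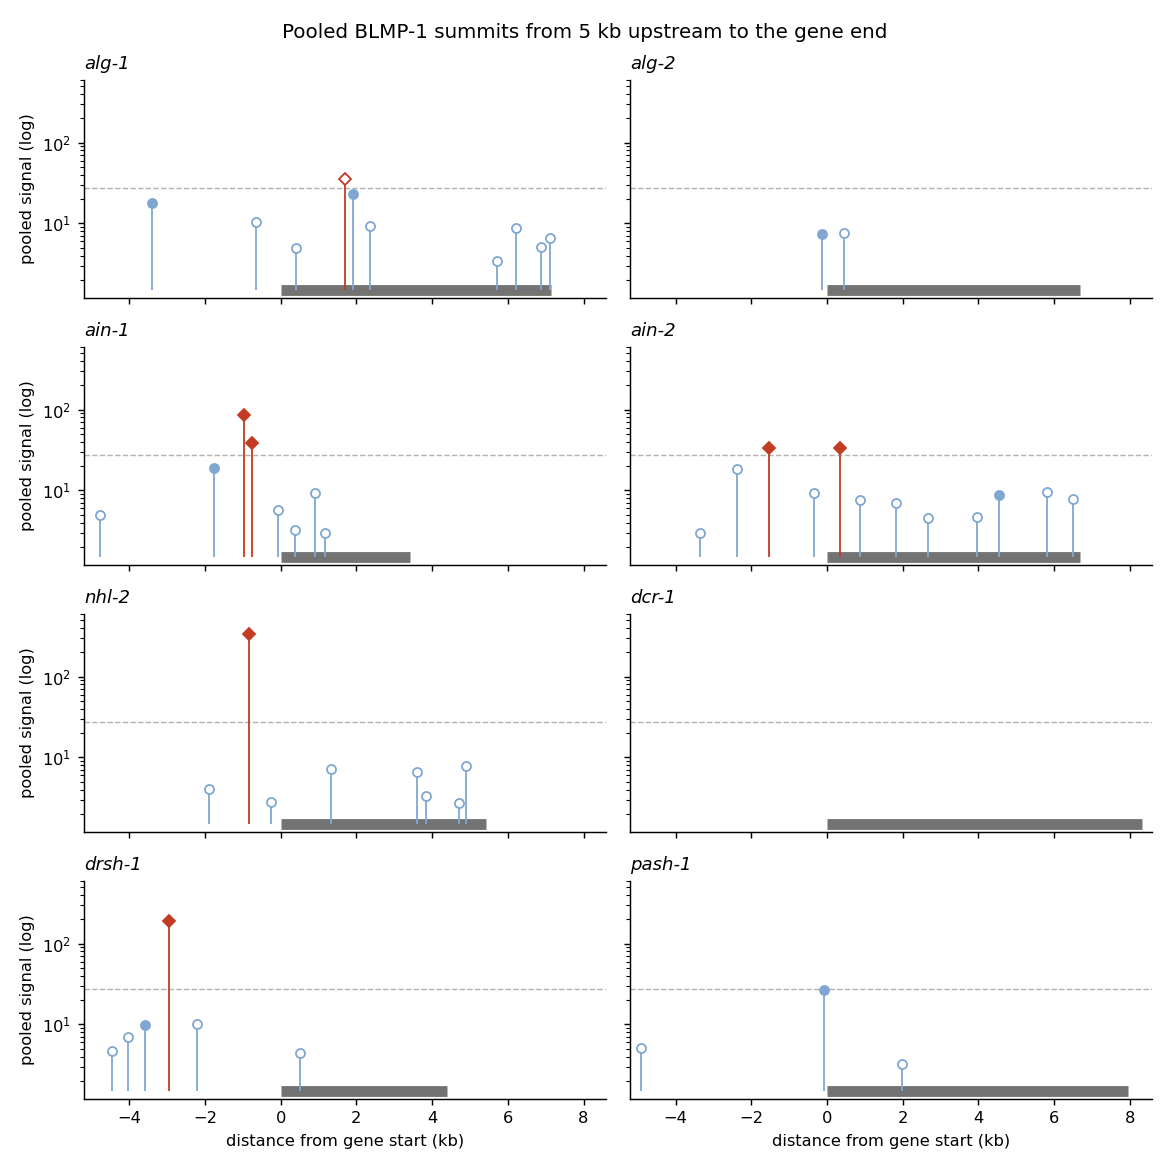
Pooled summits at the 8 genes, with distance from the annotated gene start in kb (negative is upstream) against the authors' pooled signal on a log axis. Grey bars are gene bodies, red diamonds the 7 thresholded summits and blue circles the other pooled summits, filled where both replicates had a summit within 100 bp, and the dashed line is the lowest thresholded signal, 27.1; nhl-2 reached 338, pash-1 lay just under the line at 26.8, and dcr-1 held no pooled summit.

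The cofactor gene nhl-2 (chromosome III, 4893658 to 4899085, minus strand) had the strongest summit of the 8 genes. Its thresholded summit at 4899936, 851 bp upstream of the gene's only annotated start, had a pooled signal of 338 and rank 19. It ranked 15 in replicate 2, with a signal of 157 at the same base, and 20 in replicate 3, with a signal of 180.3 at 1 bp away. The 2 replicates thus gave nearly the same place and rank. The summit lies between nhl-2 and the divergently transcribed tag-340, whose start is nearer at 572 bp, and within F26F4.14, a noncoding RNA gene. The peak lists cannot assign it to 1 of these genes.

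Apart from that peak, little was found along nhl-2. The other 7 pooled summits in its window had signals from 2.70 to 7.79, and none of them had a summit of both replicates within 100 bp. In the gene itself, 3 stood in coding exons, at 4895252, 4895483 and 4897750, and 2 in the 3′ UTR. Upstream, 1 lay 244 bp from the start with a signal of 2.83, and 1 in a coding exon of tag-340.

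Of the Argonaute pair, alg-1 was bound above the threshold and alg-2 was not. ALG-1 and ALG-2 are the main carriers of microRNAs in the worm, and they overlap in function. The gene alg-1 (chromosome X, 13949110 to 13956261, plus strand) had a thresholded summit at 13950806, inside the gene at 1696 bp from its first start and 456 bp upstream of the most downstream of its 4 annotated transcript starts. This place is the 5′ UTR in some transcripts and intron 1 in others. The pooled signal was 35.0, rank 2128.

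The replicates placed the alg-1 peak differently. Replicate 2 had a summit 72 bp to the left, at 13950734, with a signal of 12.5 and rank 2653. Replicate 3 had none within 100 bp, and its nearest, 173 bp to the right at 13950979, had a signal of 23.6 and rank 1879. That replicate 3 summit lies 28 bp from a second pooled summit at 13951007, which had a pooled signal of 22.99, below the threshold. Replicate 2 had a summit 53 bp from that one too, at 13950954 with a signal of 6.59. Both replicates therefore had a summit 255 bp upstream of the internal start or close to it, while the thresholded summit had a counterpart within 100 bp in replicate 2 alone.

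Elsewhere at alg-1 the pooled list had 8 further summits with signals from 3.40 to 18.0. The strongest of these, 3396 bp upstream at 13945714 within the noncoding RNA gene K02B9.6, was found in both replicates within 100 bp, at ranks 5627 and 3880 in replicates 2 and 3. A summit 646 bp upstream, with a pooled signal of 10.3, was found at the same base in replicate 2 and not within 100 bp in replicate 3. In the 3′ UTR, 4 pooled summits between 13954820 and 13956219 had signals from 3.40 to 8.67 and no counterpart within 100 bp in either replicate.

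The gene alg-2 (chromosome II, 873212 to 879885, plus strand) had a window of similar length, 11.7 kb against 12.2 kb for alg-1, and only 2 pooled summits against 10. Their signals were 7.38, 135 bp upstream of the start, and 7.60, 453 bp inside the gene. The upstream one was found in both replicates within 100 bp, with low signals of 3.17 (rank 13305) in replicate 2 and 2.31 (rank 23195) in replicate 3. The inner one had no summit of either replicate within 100 bp. Replicate 2 listed 4 summits at alg-2, at most 3.80, and replicate 3 listed 2, at most 2.31. The thresholded summit nearest to the alg-2 start lay 24458 bp upstream.

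Both GW182 genes held 2 thresholded summits, at different positions, but the 2 peaks of ain-1 overlap and counted as 1 when summits within 300 bp were merged. AIN-1 and AIN-2 bind the Argonautes and carry the silencing step. At ain-1 (chromosome X, 16613451 to 16616871, plus strand) the summits were 961 and 755 bp upstream of the gene's only start, in sequence outside genes and in no other gene's promoter window. Their pooled signals were 85.2 (rank 449) and 38.4 (rank 1871).

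The replicates agreed on the stronger ain-1 summit and less so on the weaker. The summit at 16612490 had a signal of 57.5 in replicate 2 (rank 158, 15 bp away) and 37.1 in replicate 3 (rank 894, 43 bp away). The summit at 16612696 had a signal of 24.2 in replicate 2 (rank 995, same base) and 5.53 in replicate 3 (rank 11025, 53 bp away). Taking from each replicate as many of its strongest peaks as the thresholded list holds, ain-1 had 2 in replicate 2 and 1 in replicate 3. Farther upstream, at 1774 bp, a summit with a pooled signal of 18.8 was found in both replicates, with signals of 6.73 and 12.1 in replicates 2 and 3. The other 5 pooled summits of the window had signals from 3.01 to 9.15, and 3 of them lay in coding exons of ain-1. The summit closest to the start, 64 bp upstream, had a pooled signal of 5.75 and a replicate 3 summit 10 bp away.

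At ain-2 (chromosome I, 4653467 to 4660153, plus strand) 1 thresholded summit lay upstream and 1 inside the gene. The upstream summit at 4651926, 1541 bp before the first start, had a pooled signal of 33.4 and rank 2264. It lies in sequence outside genes, and the nearest start, at 971 bp, is that of ptps-1, a gene on the other strand that lies between the summit and ain-2. Both replicates had it, at ranks 1832 and 3427 in replicates 2 and 3, with signals of 16.3 and 15.4.

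The inner summit at 4653809 stands in an intron, 342 bp from the first start and 282 bp downstream of the nearest of the 6 annotated transcript starts. That is just beyond the promoter window of ain-2, and it falls in the window of ptps-1 instead. Its pooled signal was 33.8 (rank 2241). The peak ranked higher in replicate 3, at 1762 with a signal of 24.6 in that list, than in replicate 2, at 7295 with a signal of 5.46. The summits of the 2 replicates were nevertheless within 12 bp of the pooled one. Among as many of the strongest peaks of 1 replicate as the thresholded list holds, ain-2 had 2 in replicate 2 (the upstream summit and 1 at 4651065) and only this inner one in replicate 3.

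With 12 pooled summits, ain-2 had the most of the 8 genes, at 1.03 per kb. The strongest below the threshold, at 4651087 with a signal of 18.2, was in the promoter windows of B0041.5 and B0041.12. Of the 8 inside the gene, 4 were in coding exons with signals from 4.56 to 9.56, and the 1 at 4658015 was found in both replicates.

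**Figure D2:**
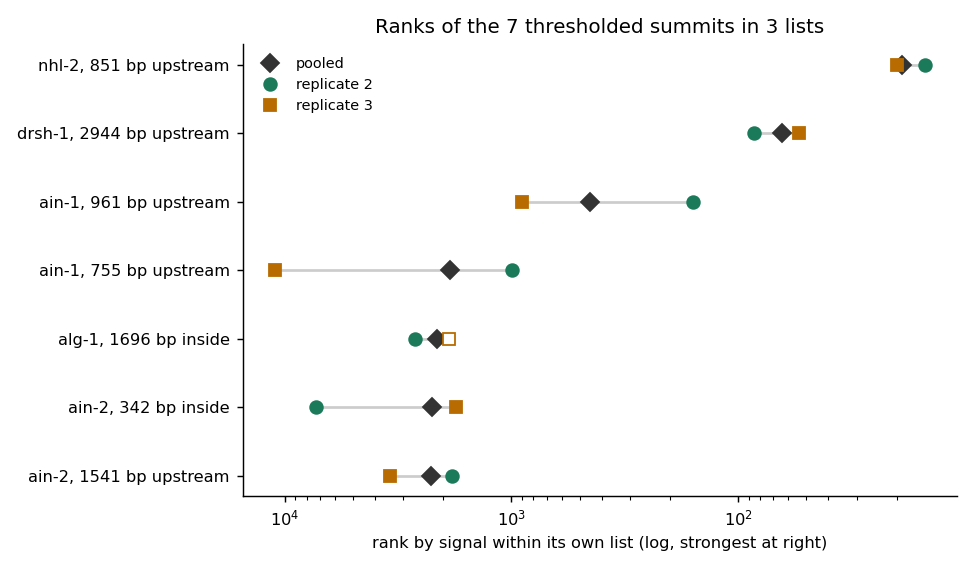
Rank by signal within each list, on a log axis with the strongest at the right, for the 7 thresholded summits, labelled by gene and distance from the gene start. Diamonds are the pooled list, circles replicate 2 and squares replicate 3, and the open square is a replicate 3 summit more than 100 bp from that of alg-1; nhl-2 ranks 15 to 20 in all 3 lists, while the weaker ain-1 summit ranks 995 and 11025 in replicates 2 and 3.

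The 3 processing genes differed from each other. In the window of drsh-1 (chromosome I, 9781324 to 9785724, minus strand) 1 summit passed, at 9788668, with a pooled signal of 188.8 and rank 64. It was strong in both replicates, at 71.1 (rank 85) and 117.8 (rank 54) in replicates 2 and 3, within 13 bp of the pooled summit. The place is not close to drsh-1. It lies 2944 bp upstream, beyond the whole of tba-1, and 57 bp from the start of cox-5B, which runs the other way, and it is in the promoter window of cox-5B only. Nearer to drsh-1 the pooled list had 1 summit at 2224 bp upstream, with a signal of 10.1, and 1 in a coding exon of the gene, with 4.42, and neither had a summit of a replicate within 100 bp. Replicate 3 alone listed a summit just upstream of the drsh-1 start, at 9785836 in a UTR of tba-1, with a signal of 5.25 and rank 11604. The other 3 pooled summits, with signals from 4.65 to 9.92, lay in or beyond cox-5B.

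At pash-1 (chromosome I, 10598673 to 10606621, plus strand) the main summit fell just short of the threshold. It lay at 10598602, only 71 bp upstream of the first start, with a pooled signal of 26.8, and the weakest thresholded peak had 27.1. Its rank in the pooled list was 3074, and 42 nuclear summits outside the thresholded list had a higher signal. Both replicates had it, at 13.2 (rank 2459, 35 bp away) and 13.8 (rank 3892, 1 bp away) in replicates 2 and 3. It was thus higher in the pooled ranking than any other sub-threshold summit of the 8 genes. The replicate 2 summit was also among as many of the strongest peaks of that replicate as the thresholded list holds, so that pash-1 had 1 by that count, and 0 by the same count in replicate 3. The other 2 pooled summits of pash-1, with signals of 5.10 and 3.25, were in coding exons of set-18 and of pash-1.

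Almost nothing was listed at dcr-1 (chromosome III, 8071967 to 8080281, minus strand), although its window of 13.3 kb was the longest of the 8. It held no thresholded summit, no pooled summit and no summit of replicate 2. Replicate 3 had 1, in a coding exon at 8074007, with a signal of 6.23 and rank 9714. Of the 1434 genes with a window at least as long, 183 (12.8%) had no pooled summit. The thresholded summit nearest to the dcr-1 start lay 36340 bp away.

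In the relaxed lists nearly all of the 8 genes had entries, as did most genes of the genome. A pooled summit was found at 7 of 8, against 65.9% of all protein-coding genes, and 6 of 8 had one in a promoter window, against 40.8%. Replicate 2 listed a summit at 7 of 8 (63.8% of all genes) and replicate 3 at 8 of 8 (68.1%). In number there were 49 pooled summits, 35 of replicate 2 and 39 of replicate 3. Per kb of window the pooled count was 0.544 against 0.309 over all gene windows.

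**Figure D3:**
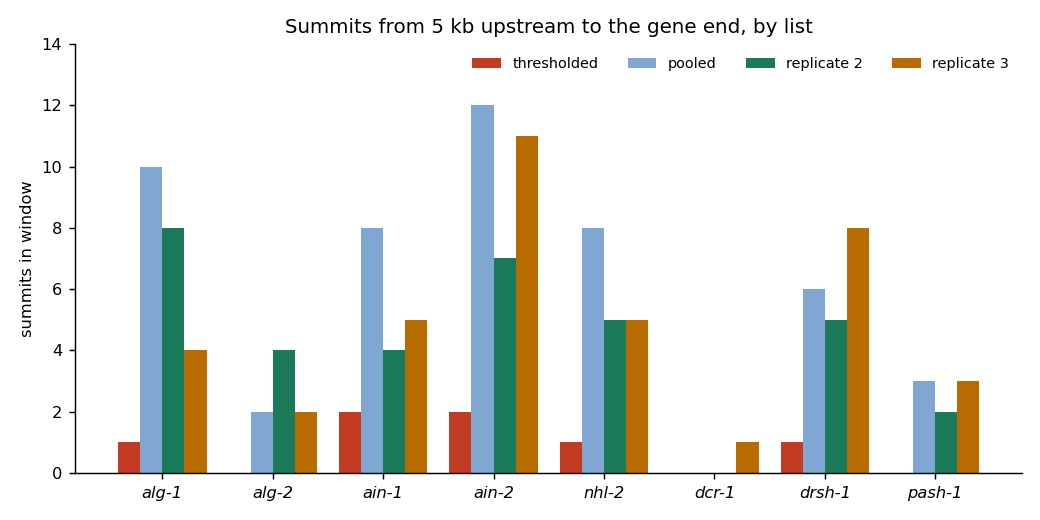
Number of summits from 5000 bp upstream to the gene end for each gene in the thresholded list, the pooled relaxed list and the relaxed lists of replicates 2 and 3. Pooled counts run from 0 at dcr-1 to 12 at ain-2, and alg-1 holds 8 summits in replicate 2 and 4 in replicate 3.

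Most sub-threshold entries were not shared by the replicates. Of the 42 pooled summits outside the thresholded list, 7 (16.7%, 95% Wilson interval 8.32 to 30.6) had a summit of both replicates within 100 bp, against 14.6% of all such summits. A further 22 had 1 in a single replicate and 13 in neither. Of the 7 thresholded summits, 6 had both (85.7%, 48.7 to 97.4, against 92.6% of all nuclear thresholded summits), alg-1 being the exception. The thresholded list was derived from these lists, so that share was largely fixed in advance. Taking the replicates directly, 12 of the 35 replicate 2 summits lay within 100 bp of a replicate 3 summit (34.3%, against 34.5% over all nuclear summits of replicate 2).

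By annotation, 4 of the 7 thresholded summits were outside genes, against 61.0% of all thresholded nuclear summits. None of the 7 thresholded summits was in a coding exon, where 1.55% of all thresholded nuclear summits lay, and 5 of 7 were upstream of the gene. Of the 42 weaker ones, 17 were in coding exons, against 22.9% of all pooled nuclear summits outside the thresholded list, and 25 were within the gene. The percentages over all summits cover the whole nuclear genome and not only gene windows, so these annotation counts are not compared like for like. No share over all gene windows is given for the upstream and within-gene counts, which depend on gene length. The thresholded summits also lay in sequence richer in G and C, with a median of 52.5% over 50 bp to each side and a range from 35.6 to 58.4%. The median was 39.6% in the 42 weaker ones, 43.6% over all thresholded summits and 37.6% over all the other pooled ones. The part of base composition in these counts was not tested.

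The word that forms the core of the mammalian PRDM1 site, AGTGAAAG or AGCGAAAG on either strand, was not within 50 bp of any of the 7 thresholded summits (0 of 7, Wilson upper bound 35.4%), against 7.09% of all nuclear thresholded summits. These letters stood 31 bp to the left of the sub-threshold summit of ain-2 at 4651087. Shorter or other words known to be frequent at BLMP-1 summits in these data were also counted, and since they were picked on these summits they are no independent evidence. GTGAAA was found at nhl-2, starting 13 bp to the right of the summit as the complement printed in capitals above, and at the upstream summit of ain-2 (2 of 7, against 21.8% of all). At ain-2 it was part of AAGTGAAA (1 of 7, against 8.71%), a word that overlaps the PRDM1 core. AGACGCAG stood on the minus strand at the weaker ain-1 summit, in capitals above (1 of 7, against 8.05%), and GAGAGAGA at alg-1 (1 of 7, against 9.11%). The pash-1 summit just under the threshold held AGACGCAG and 2 copies of GTGAAA. The stronger ain-1 summit, the inner ain-2 summit and the summit near drsh-1 held none of these words, which says only that these letters are not in those windows.

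Genes of related kinds were counted in the same way, over 6 lists with 59 matched genes. Not all of these genes act in the microRNA pathway, and the lists were chosen with earlier results of these data known. The median windows of the lists ran from 7.59 kb to 12.3 kb, against 7.03 kb over all genes, and longer windows can hold more summits. In all, 20 of 59 (33.9%) had a thresholded summit in the window and 11 had one in a promoter window, beside the 19.2% and 8.85% of all genes given above. The share was highest in the list of deadenylation and decapping genes, with 8 of 15 in the window and 6 in a promoter. Not all genes of that list encode decay enzymes, since it also holds poly(A)-binding protein genes and ifet-1. The strongest promoter signals there were 137 at ifet-1, which encodes a translational repressor, shared with the ribosomal gene rps-1, then 56.3 at the CCR4-NOT gene ntl-2, 46.9 at the poly(A)-binding protein gene pab-2, and 46.8 at cgh-1, a DEAD-box helicase gene. The scaffold gene of CCR4-NOT, let-711, had 40.4.

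Among microRNA cofactors 3 of 9 had a thresholded promoter summit. These were the Pumilio-family gene puf-9 (signal 150.2, rank 117), vig-1 (91.2) and pqn-59 (48.0, shared with taf-4). Of the 16 other Argonautes 4 had a thresholded summit in the window and only alg-5 had one in a promoter (48.8), in a window shared with the histone genes his-67 and his-68. Of 8 Dicer partners 2 had a thresholded summit in the window, and the promoter summit of rde-4, which encodes a double-stranded RNA binding partner of Dicer, had a signal of 31.8 and was shared with cox-14.

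Of 7 microRNA turnover and tailing genes only the exonuclease gene xrn-2 had a thresholded summit in its window (93.4), and none had a thresholded promoter summit. Among the 4 other TRIM-NHL genes, relatives of nhl-2, lin-41 and ncl-1 had thresholded summits in the window, at most 274 and 81.1, and none in a promoter. The thresholded signal of nhl-2 was the highest among these 5 genes.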

How the data were processed

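Peak lists on ce11, the same assembly as WBcel235, were analysed. Per the deposited file descriptions, each replicate's alignment, and the pooled alignments, were compared with a control library (not analysed here) to make the relaxed lists, from which the thresholded list was derived. No source used here gives the aligner, caller, versions or threshold. Signal values per peak were deposited as the authors' caller made them. The −log10 q values were deposited too (per the narrowPeak layout) and sat at a ceiling of 3.98 in every thresholded peak, so they were not used. All 3060 thresholded peaks are also in the pooled list. The 29 mitochondrial ones were left out, and a summit given beyond its peak (3 of the pooled list) was moved to the peak's end.

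Genes and transcript starts came from Ensembl release 115, and sequence from RefSeq. Summits within 100 bp counted as matched. The annotation of a summit was the first that applied of coding exon, UTR, other exon and intron. A transcript of any kind gave a promoter window to its protein-coding gene. Members and lists were chosen with earlier results of these data known. Named genes were all members, every thresholded summit of theirs and the strongest other one, the genes sharing their summits, and up to 4 per list with the strongest promoter summit; let-711, xrn-2, lin-41, ncl-1, further weak summits and the sequences of the weaker ain-1 summit and of alg-2 were added after their values were seen. Of the listed symbols 3 matched no gene name in the annotation (ntl-1, daf-21 and pup-1) and were left out of the counts. The annotation may hold these genes under other names. Window counting was tested on simulated data. Alternatives were other windows, thresholded peaks above the median signal, the strongest peaks of either replicate alone, as many as the thresholded list holds, peak overlap, nearest start, merging of summits within 300 bp, other matching distances and words. Intervals cover the counting of peaks only. Python 3.11.15, NumPy 2.4.6, pandas 2.3.3, SciPy 1.17.1 and matplotlib 3.10.9 were used.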

Additional observations from a re-analysis of the deposited data

How the results depend on the processing

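The count of genes with a thresholded summit, 5 of 8, was 3 with the thresholded peaks above the median signal (ain-1, nhl-2 and drsh-1), where the share of all genes was 10.3%, and 3 when only summits nearest to the gene's own start counted (alg-1, ain-1 and ain-2). It was 4 with 2000 bp upstream, where drsh-1 dropped out and the share of all genes was 13.3%. It was 5 without replicate 2 (18.8% of all genes) and 6 without replicate 3 (18.9%), pash-1 being added. The 7 summits became 3 and 4 under the first 2 of these settings, and 6 when summits within 300 bp were merged, ain-1 then counting 1. The 3 genes with a promoter summit became 1, alg-1, with a 500 bp window. No share of all genes is given for this window or for the nearest-start setting, so these drops cannot be set beside those of all genes. The share of thresholded summits matched in both replicates, 85.7%, was 100% within 200 bp and 42.9% when only as many of each replicate's strongest peaks as the thresholded list holds were used. In place of the PRDM1 core, found at 0 of 7, AAGTGAAA was found at 1 and GTGAAA at 2. Other settings kept these values within 1.5 times, and of 64 counts for single genes 53 did so. Those 64 include the counts of alg-2, dcr-1 and pash-1, which held no thresholded summit in the main setting. Settings that can only remove or merge summits could not change the counts of these genes. The 53 are therefore no measure of how stable the counts of the other genes are. The lists hold no read counts, so what depth could show at alg-2 or dcr-1 is unknown.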
